A study of Mus musculus with 8 samples.

Results

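The GTPases of immunity-associated proteins (GIMAP) family was followed in induced regulatory T cells (iTreg) that did or did not carry neuropilin-1 (Nrp-1) on their surface. The members were taken by gene symbol and comprised Gimap1, Gimap3, Gimap4, Gimap5, Gimap6, Gimap7, Gimap8 and Gimap9, which are 8 of the 23361 genes in the expression table. The rule is a list of symbols and sets no threshold on a measured value. All 8 had a mean of at least 1 FPKM (fragments mapped to a transcript, scaled by its length and by the depth of the library) over the 8 libraries and were therefore among the 10467 genes tested. The study compared Nrp-1+ iTreg and iTreg without surface Nrp-1 for stability and suppression. It also asked how the 2 subsets differ in gene expression. Each of the 2 subsets was sequenced in 4 libraries. Both groups came from wild-type B6 Foxp3-RFP mice, whose red fluorescent protein reports the transcription factor Foxp3, and which by the study's methods were male and 7 to 8 weeks old. In both groups splenic naive CD4+ T cells (CD44low CD62Lhigh) were given anti-CD3/CD28 beads, IL-2 at 50 U/ml and TGF-β at 2 ng/ml for 3 days. Viable CD4+ Foxp3-RFP+ cells were then separated by their surface Nrp-1. The labels carry a time tag of day 5 beside the culture length of 3 days, and the study's methods give IL-2 in another unit, by mass, and name another library kit than the labels do. The libraries are called biological replicates without a statement of which mice or cultures they came from, so p-values here measure the spread between these libraries, which may in part be technical.

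GIMAP proteins share a GTP-binding domain of the AIG1 type and are made mainly by lymphocytes, where they are known for their part in the survival and homeostasis of T and B cells. Their genes lie side by side in 1 cluster, and several of the proteins sit on the membranes of lysosomes, mitochondria or other organelles. Loss of Gimap5 in rodents is known to cause a severe shortage of T cells, and levels of several members are known to differ between resting and activated T cells.

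The label of the cells was checked first against marker genes. The 8 genes of CD4+ regulatory T cells each stood at 107.1 FPKM or more in every library, with Foxp3 at 111.5 to 120.5 FPKM in Nrp-1+ iTreg and 107.1 to 109.9 FPKM in Nrp-1- iTreg. In limma 3 of these 8 genes were called lower in Nrp-1+ iTreg (Cd3d, Cd3g and Ctla4) and 2 higher (Foxp3 and Il2ra). The other 3 did not pass, and the median log2 difference of the 8 was -0.064. Of all tested genes 20.0% were called lower and 20.9% higher. Among markers of other cells, Ms4a1 (B cells) and Tek (endothelium) were listed at 0 in all libraries, Cd8a reached at most 0.111 FPKM, Csf1r 0.0656 FPKM and Kdr 0.00925 FPKM. Cd79b, another B cell marker, stood at 4.82 to 5.32 FPKM in Nrp-1+ iTreg and at 3.64 to 5.38 FPKM in Nrp-1- iTreg, ranges that overlapped. Endothelial cells are also known to make GIMAP proteins, and the summed level of their 4 markers, nearly all of it Pecam1, was 57.8 to 61.8 FPKM in Nrp-1+ iTreg and 60.3 to 66.3 FPKM in Nrp-1- iTreg. Summed levels of the 2 CD8 T cell markers were 7.10 to 8.78 and 9.33 to 11.3 FPKM in the same order, nearly all of it Cd8b1, which was called lower in Nrp-1+ iTreg (log2 difference -0.31, limma adjusted p = 0.0119). Those of the 6 myeloid and dendritic markers were 6.47 to 7.22 and 5.41 to 6.20 FPKM, nearly all of it Itgam, which was called higher (log2 difference 0.23, limma adjusted p = 0.00136). The red cell gene Hba-a1 carried its list and gave sums of 5.48 to 7.53 FPKM against 2.01 to 3.25 FPKM. It was called higher in Nrp-1+ iTreg (log2 difference 1.02, limma adjusted p = 0.00051). The 2 NK cell markers together stayed at or under 0.142 FPKM. The part of these markers in the values of the GIMAP genes was not tested. Relative sequencing depth, read from the steps between low values and expressed relative to the first Nrp-1+ library, lay between 0.993 and 1.22 in Nrp-1+ iTreg and between 0.809 and 1.23 in Nrp-1- iTreg, and fragment numbers behind single genes are unknown.

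All 8 GIMAP genes were lower in the Nrp-1+ group at an adjusted p under 0.05 in limma, with Benjamini-Hochberg adjustment over all 10467 genes tested. Over 17 alternative fits 6 to 8 were called, with Gimap9 lost in 11 of them and Gimap4 lost with quantile normalization. By the same rule 20.0% of all tested genes were lower and 20.9% were higher in Nrp-1+ iTreg. For all 8 members the highest Nrp-1+ library lay under the lowest Nrp-1- library, a separation in this direction that 19.3% of all tested genes had. The median log2 difference of the 8 members, Nrp-1+ minus Nrp-1- on the log2(FPKM + 1) scale, was -0.33, against -0.016 over all tested genes. Differences on this scale understate the change of low genes. The sizes were unequal: Gimap7 was 48.7% lower, 6 members were 17.3% to 27.8% lower, and Gimap9 was 8.18% lower. The 8 genes were also strongly expressed, with 7 of them among the 2616 tested genes with the highest mean levels. In these bulk samples fewer cells with a transcript and less of the transcript per cell cannot be told apart.

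**Figure D1:**
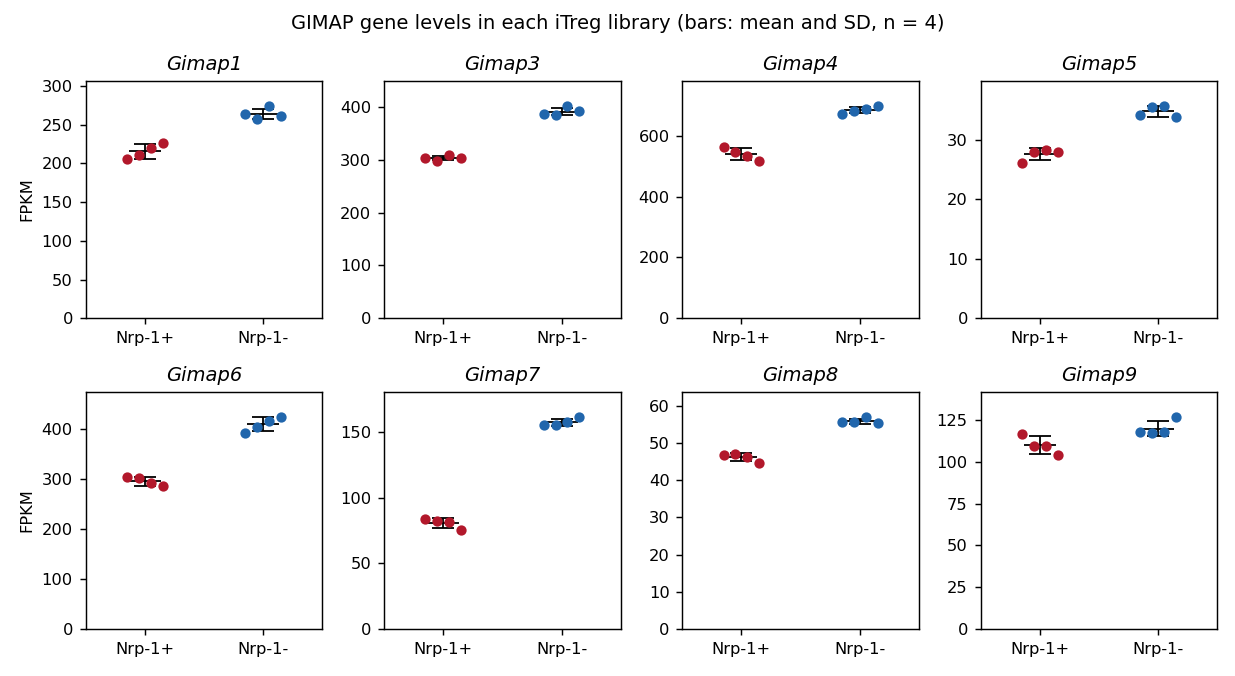
Each panel plots 1 GIMAP gene, with the FPKM of each library as a point (replicates 1 to 4 from left to right in each group, Nrp-1+ iTreg red, Nrp-1- iTreg blue) and bars for the mean and SD (n = 4) on an axis that starts at 0. The groups do not overlap in any panel, and in proportion to the level the distance is widest for Gimap7 (80.8 against 157.4 FPKM) and narrowest for Gimap9 (110.1 against 119.9 FPKM).

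Gimap7 encodes a GTPase that is known to stimulate GTP hydrolysis by other GIMAP proteins. Its level was 83.8, 82.4, 81.7 and 75.1 FPKM in Nrp-1+ iTreg replicates 1 to 4, and 155.5, 155.2, 157.4 and 161.5 FPKM in Nrp-1- iTreg replicates 1 to 4. Every Nrp-1- library was thus far above every Nrp-1+ library, and replicate 4 stood lowest of the Nrp-1+ libraries and highest of the Nrp-1- libraries. The means were 80.8 ± 3.85 FPKM and 157.4 ± 2.89 FPKM (SD, n = 4 each), a log2 difference of -0.96 (SE 0.04, limma adjusted p = 4.41e-07). Gimap7 ranked 5 by size among the 2093 genes called lower in Nrp-1+ iTreg. Among all tested genes, called or not, its decrease ranked 126. A two-sided exact permutation test of its mean FPKM gave p = 0.0286, which is the smallest value that the 70 arrangements of 4 against 4 libraries allow, and each of the other 7 members gave the same value.

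The stretch upstream of the start of Gimap7 is shown with those of Gimap4 and Gimap9, other plus-strand genes of the cluster that are not its direct neighbours and that differed less and least, so that the sequences next to the most and the least different members can be read side by side. Each is the 250 bases before the start in the RefSeq promoter table, in build GRCm38.p6, on the plus strand, at chr6:48718371-48718620, chr6:48684328-48684577 and chr6:48675885-48676134. The start used for Gimap9 lies a few bases inside the gene as placed on the chromosome below, so the end of its stretch falls within that gene model. Capitals mark a match to the RUNX core motif TGTGGT, read here on the opposite strand.
Gimap7: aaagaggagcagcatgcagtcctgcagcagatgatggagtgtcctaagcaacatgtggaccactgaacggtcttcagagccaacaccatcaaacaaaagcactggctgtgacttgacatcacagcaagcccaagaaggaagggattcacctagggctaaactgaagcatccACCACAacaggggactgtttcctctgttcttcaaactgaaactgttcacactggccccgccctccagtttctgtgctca
Gimap4: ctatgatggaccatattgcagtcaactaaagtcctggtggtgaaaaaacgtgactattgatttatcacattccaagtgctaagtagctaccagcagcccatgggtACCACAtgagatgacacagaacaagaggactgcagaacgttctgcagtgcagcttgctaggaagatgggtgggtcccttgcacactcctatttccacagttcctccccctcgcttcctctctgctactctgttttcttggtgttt
Gimap9: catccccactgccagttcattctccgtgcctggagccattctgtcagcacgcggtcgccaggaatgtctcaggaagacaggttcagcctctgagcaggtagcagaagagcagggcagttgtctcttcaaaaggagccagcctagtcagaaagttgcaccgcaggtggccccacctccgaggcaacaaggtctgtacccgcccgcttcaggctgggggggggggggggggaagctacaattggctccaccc
The RUNX match lay 79 to 74 bases before the start in Gimap7 and 145 to 140 bases before it in Gimap4, and the upstream stretch of Gimap9 held none of the 4 motifs searched. Promoter windows of 250 bases before to 50 bases after the start were available for all 8 genes, with 9 windows in all because Gimap8 has 2. Searched on both strands, TGTGGT was found in windows of 3 member genes (Gimap1, Gimap4 and Gimap7) and in 16.8% of 32851 RefSeq promoters. The ETS motif AGGAAGT was found in 3 member genes and 9.35% of promoters, the STAT motif TTCNNNGAA in 4 member genes and 8.30%, and the FOXO motif GTAAACA in 1 member gene and 3.65%. Past the start, the window of Gimap9 held an ETS match and that of Gimap7 a STAT match. Gimap6, the second most different member, had no RUNX match. Such matches are letters in a window and not measured binding. The 9 windows held 43.3% to 57.3% GC (median 48.0%, against 52.7% over all promoters) and 2 to 8 CpG dinucleotides (median 4, against 7), and the window of Gimap9 had the most of both.

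Gimap6 and Gimap4 were among the most strongly expressed members. Gimap6, whose protein is known to bind the autophagy protein Gabarapl2, stood at 304.5, 302.2, 291.6 and 285.6 FPKM in Nrp-1+ iTreg replicates 1 to 4 and at 392.7, 405.6, 417.2 and 424.3 FPKM in Nrp-1- iTreg replicates 1 to 4. The 4 Nrp-1+ libraries were all lower. Its means of 296.0 ± 8.93 and 409.9 ± 13.9 FPKM (SD, n = 4 each) differed by 27.8%, a log2 difference of -0.47 (SE 0.03, limma adjusted p = 1.28e-05), the second largest of the family. Gimap4, which in mice is known to influence the death of T cells, had the highest level of all members in every library. It stood at 564.2, 546.4, 535.0 and 515.5 FPKM in Nrp-1+ iTreg replicates 1 to 4 and at 672.3, 681.0, 687.5 and 696.4 FPKM in Nrp-1- iTreg replicates 1 to 4. The groups were separate, with means of 540.3 ± 20.5 and 684.3 ± 10.2 FPKM (SD, n = 4 each), 21.0% lower in Nrp-1+ iTreg at a log2 difference of -0.34 (SE 0.03, limma adjusted p = 5.95e-05). With quantile normalization of the libraries the adjusted p of Gimap4 was 0.114.

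Gimap5 and Gimap3 are close relatives. Gimap5 protein sits on lysosomal membranes and is needed for the survival of peripheral T cells, and Gimap3 is known as a modifier of mitochondrial DNA segregation. Gimap3 stood at 303.5, 298.7, 308.8 and 304.2 FPKM in Nrp-1+ iTreg replicates 1 to 4 and at 386.8, 385.2, 401.2 and 392.8 FPKM in Nrp-1- iTreg replicates 1 to 4. Its libraries were tight in both groups, with means of 303.8 ± 4.16 and 391.5 ± 7.24 FPKM (SD, n = 4 each), 22.4% lower in Nrp-1+ iTreg (log2 difference -0.36, SE 0.02, limma adjusted p = 4.94e-06). Gimap5 had the lowest level of the family, at 26.0, 28.0, 28.2 and 27.9 FPKM in Nrp-1+ iTreg replicates 1 to 4 and 34.2, 35.6, 35.6 and 33.8 FPKM in Nrp-1- iTreg replicates 1 to 4. The Nrp-1+ libraries were all below the Nrp-1- libraries, with means of 27.6 ± 1.01 and 34.8 ± 0.927 FPKM (SD, n = 4 each), 20.8% lower (log2 difference -0.33, SE 0.03, limma adjusted p = 0.000105). The coding sequences of the pair were 90.6% identical over 898 aligned bases, whereas the 20 other pairs that leave out the longer Gimap8 were 58.1% to 68.9% identical. Their longest identical coding run, 140 bases at coding positions 175 to 314 of Gimap3 and 187 to 326 of Gimap5, is given to show where reads could come from either gene.
Gimap3 and Gimap5: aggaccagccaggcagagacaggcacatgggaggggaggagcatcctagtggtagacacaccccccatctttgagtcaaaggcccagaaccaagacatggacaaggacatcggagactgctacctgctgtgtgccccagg
The 50-base stretches of the longest protein-coding transcript of each gene were also compared. Of these, 9.06% for Gimap3 and 9.98% for Gimap5 also occurred in another member, and 0 did for the other 6 genes. Gimap3 also shared stretches with the annotated gene Gm38409, and Gimap1 shared 2.49% of its stretches with Gm10310 and Gm49762. How the authors' counting divided reads from such stretches is not given in the sources used here, so these levels are uncertain to that extent.

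Gimap1, which is needed for the survival of mature T and B cells, stood at 205.3, 210.5, 220.1 and 226.1 FPKM in Nrp-1+ iTreg replicates 1 to 4 and at 263.5, 257.9, 273.7 and 261.2 FPKM in Nrp-1- iTreg replicates 1 to 4. All Nrp-1+ libraries were lower, with means of 215.5 ± 9.35 and 264.1 ± 6.79 FPKM (SD, n = 4 each), a decrease of 18.4% (log2 difference -0.29, SE 0.03, limma adjusted p = 0.000304). The order of the Nrp-1+ libraries was not shared by the members, since replicate 1 was highest and replicate 4 lowest for Gimap4, Gimap6, Gimap7 and Gimap9 and the reverse held for Gimap1. Gimap8, the largest member, whose protein has several GTPase domains in 1 chain, stood at 46.8, 46.9, 46.3 and 44.7 FPKM in Nrp-1+ iTreg replicates 1 to 4 and at 55.5, 55.5, 56.9 and 55.4 FPKM in Nrp-1- iTreg replicates 1 to 4. These groups too were separate, with means of 46.2 ± 1.03 and 55.8 ± 0.733 FPKM (SD, n = 4 each), 17.3% lower in Nrp-1+ iTreg (log2 difference -0.27, SE 0.02, limma adjusted p = 3.83e-05).

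Gimap9 was the member with the smallest difference. It stood at 116.9, 109.6, 109.5 and 104.4 FPKM in Nrp-1+ iTreg replicates 1 to 4 and at 117.9, 117.3, 117.7 and 126.8 FPKM in Nrp-1- iTreg replicates 1 to 4. The groups were 0.379 FPKM apart, between replicate 1 of the Nrp-1+ libraries and replicate 2 of the Nrp-1- libraries. The means were 110.1 ± 5.15 and 119.9 ± 4.59 FPKM (SD, n = 4 each), a log2 difference of -0.12 (SE 0.04, limma adjusted p = 0.0382). Leaving out any 1 of 7 libraries, that is, each of the 8 except replicate 1 of Nrp-1+ iTreg, gave limma adjusted p of 0.0547 to 0.0855 for Gimap9, and without replicate 1 of Nrp-1+ iTreg it was 0.0152. The limma adjusted p of Gimap9 was also over 0.05 with quantile normalization (0.170), no filter (0.0569) and no intensity trend (0.0503). For the other 7 members the largest limma adjusted p was 0.000304, and leaving out any single library did not end a call.

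The summed level of the 8 genes was 1584 to 1651 FPKM in the Nrp-1+ libraries and 2078 to 2152 FPKM in the Nrp-1- libraries. The means were 1620 ± 27.8 and 2118 ± 37.4 FPKM (SD, n = 4 each), so the sum was 23.5% lower in Nrp-1+ iTreg. Within the sum Gimap7 held 4.98% in Nrp-1+ iTreg and 7.43% in Nrp-1- iTreg on average, and Gimap6 held 18.3% and 19.4%. Gimap4 held 33.3% and 32.3%, Gimap9 6.79% and 5.66%, and Gimap8 2.85% and 2.64%. For these 5 members the shares did not overlap between the groups (two-sided exact permutation p = 0.0286 each, unadjusted, 8 shares tested). Gimap7 and Gimap6 held less of the sum in Nrp-1+ iTreg and Gimap4, Gimap8 and Gimap9 held more, so the members did not change in equal proportion. The shares of Gimap1 (13.3% and 12.5%, exact permutation p = 0.114), Gimap3 (18.8% and 18.5%, exact permutation p = 0.343) and Gimap5 (1.70% and 1.64%, exact permutation p = 0.314) overlapped between the groups. Shares add up to the whole in each library, so a lower share of 1 member raises the others.

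**Figure D2:**
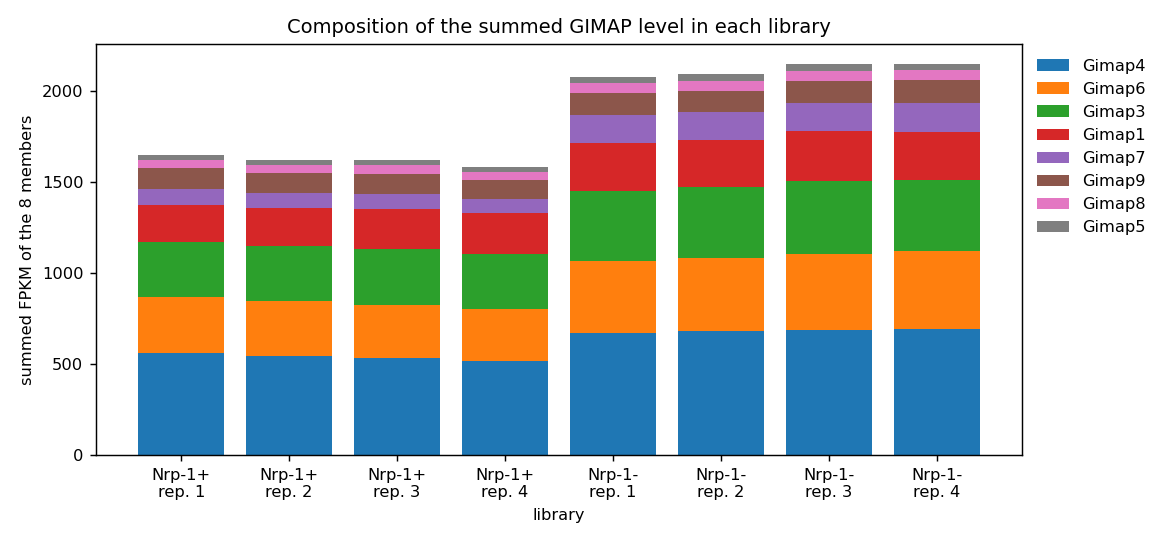
Each bar is 1 library and stacks the FPKM of the 8 GIMAP genes, so that its height is the summed FPKM of the family. The 4 Nrp-1+ iTreg bars reach 1584 to 1651 FPKM and the 4 Nrp-1- iTreg bars 2078 to 2152 FPKM, and the layer of Gimap7 is the one that shrinks most in proportion.

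By mean FPKM, which is per transcript length, the order in Nrp-1+ iTreg was Gimap4, Gimap3, Gimap6, Gimap1, Gimap9, Gimap7, Gimap8 and Gimap5. In Nrp-1- iTreg it was Gimap4, Gimap6, Gimap3, Gimap1, Gimap7, Gimap9, Gimap8 and Gimap5. Neighbours in these orders did not overlap over the 4 libraries except Gimap3 and Gimap6, whose ranges overlapped in both groups. Gimap6 was above Gimap3 in 4 of 4 Nrp-1- libraries and Gimap3 above Gimap6 in 2 of 4 Nrp-1+ libraries. Gimap7 and Gimap9 changed places between the groups, with a ratio of Gimap7 to Gimap9 of 0.716 to 0.752 in the Nrp-1+ libraries and 1.27 to 1.34 in the Nrp-1- libraries. Gimap4 was 19.6-fold above Gimap5 in Nrp-1+ iTreg and 19.7-fold in Nrp-1- iTreg.

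The 8 genes lie within 123.7 kb of chromosome 6, at chr6:48647186-48770851 in GRCm38.p6, with 6 of them on the plus strand and Gimap6 and Gimap3 on the minus strand. From the low coordinate end the order is Gimap8 (48647186 to 48660875), Gimap9 (48676121 to 48679116), Gimap4 (48684578 to 48692062), Gimap6 (48701583 to 48708244), Gimap7 (48718621 to 48724636), Gimap1 (48739047 to 48743795), Gimap5 (48746197 to 48754200) and Gimap3 (48764464 to 48770851). The annotated gene Gm28053 (plus strand, 48718607 to 48752644) covers Gimap7 and Gimap1 and ends inside Gimap5. Gimap1os (minus strand, 48738346 to 48741444) overlaps Gimap1 from the opposite strand. Neither was analysed here. Of the 50-base stretches in the longest protein-coding transcripts, 10.3% in Gimap1, 5.51% in Gimap5, 2.62% in Gimap7 and 0.382% in Gimap3 also occur in transcripts of Gm28053. Whether the authors' counting used strand is not given in the sources used here. Reads of these members may therefore have been divided with Gm28053 or Gimap1os.

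The nearest protein-coding genes outside the cluster, 6 on each side, did not share the direction of the family as a group. Of these 12 genes 11 were matched to the table and 6 were tested. Lrrc61, on the side of Gimap8, was lower in Nrp-1+ iTreg (22.1 against 25.9 FPKM, log2 difference -0.22, SE 0.02, limma adjusted p = 0.000139). Tmem176b and Tmem176a, a pair of membrane protein genes on the side of Gimap3, were higher, at 15.4 against 9.72 FPKM (log2 difference 0.61, SE 0.04, limma adjusted p = 7.12e-06) and 10.6 against 5.88 FPKM (log2 difference 0.76, SE 0.05, limma adjusted p = 1.72e-05). In both of these genes all 4 Nrp-1+ libraries were above all 4 Nrp-1- libraries. Between Lrrc61 and the cluster, Rarres2 (5.41 against 6.74 FPKM, limma adjusted p = 0.0613), Repin1 (1.92 against 1.55 FPKM, limma adjusted p = 0.0737) and Zfp775 (3.74 against 3.60 FPKM, limma adjusted p = 0.683) did not pass the test. Rarres2 passed without replicate 1 of the Nrp-1- libraries (limma adjusted p = 0.0226) and Repin1 without replicate 2 of the Nrp-1+ libraries (limma adjusted p = 0.0378). Tmem176a overlaps Tmem176b, and Lrrc61 overlaps Rarres2, so reads may have been divided within these pairs.

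**Figure D3:**
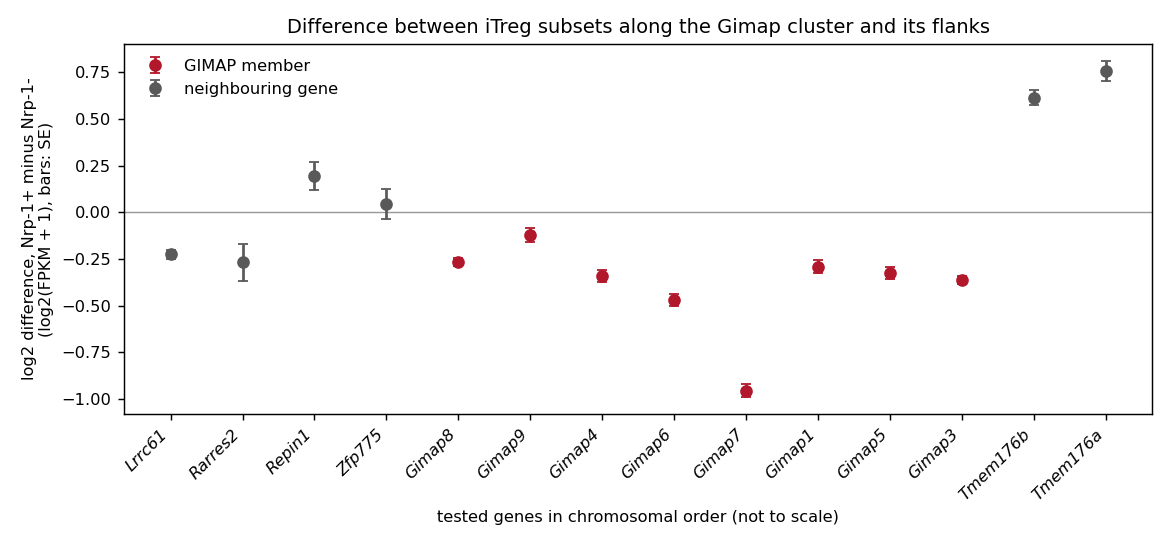
The log2 difference (Nrp-1+ minus Nrp-1- iTreg, log2(FPKM + 1) scale, point and SE) is plotted for the 8 members (red) and the 6 tested neighbours (grey) in their order along the chromosome, without distances to scale. All members lie below 0 with Gimap7 lowest at -0.96, and the neighbours lie on both sides of 0, from -0.27 (Rarres2) to 0.76 (Tmem176a).

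Genes tied to GIMAP proteins by binding or by a part in lymphocyte survival were mixed. Of 14 tested, 6 were lower in Nrp-1+ iTreg, 1 was higher and 7 did not pass the test, with a median log2 difference of -0.093. Among all tested genes 20.0% were called lower and 20.9% higher. Bcl2l1, which encodes the survival protein Bcl-xL, was the gene that was higher, at 24.4 against 19.8 FPKM (log2 difference 0.29, limma adjusted p = 0.000766). Gabarapl2, the autophagy protein that binds Gimap6, was lower at 139.8 against 165.0 FPKM (log2 difference -0.24, limma adjusted p = 0.00182). Mcl1, another survival protein of the Bcl-2 family, was lower at 233.1 against 265.9 FPKM (log2 difference -0.19, limma adjusted p = 0.000163), and so was Bbc3, which encodes the death-promoting protein Puma, at 49.8 against 56.6 FPKM (log2 difference -0.18, limma adjusted p = 0.000741). In each of these 4 genes the groups did not overlap. With quantile normalization the limma adjusted p of Mcl1 was 0.0568.

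Genes known for high levels in resting T cells moved mostly in the direction of the family. Of 15 tested, 12 were lower in Nrp-1+ iTreg and 0 were higher at an adjusted or unadjusted limma p under 0.05. The other 3 did not pass the test, and the median log2 difference of the 15 was -0.12. Over the alternative fits 8 (quantile normalization) to 12 were called lower. Among all tested genes 20.0% were called lower and 20.9% higher in the main fit. Il7r, the receptor for the survival cytokine IL-7, stood at 122.8 against 157.7 FPKM (log2 difference -0.36, limma adjusted p = 6.84e-05) and Txnip, a regulator of glucose uptake, at 430.1 against 535.3 FPKM (log2 difference -0.32, limma adjusted p = 1.30e-05). Slfn2, known for its part in T cell quiescence, stood at 197.3 against 236.8 FPKM (log2 difference -0.26, limma adjusted p = 0.000324), and S1pr1, which guides the exit of T cells from lymphoid organs, at 188.1 against 225.7 FPKM (log2 difference -0.26, limma adjusted p = 2.36e-05). The family's median log2 difference of -0.33 stood beside these. The 10 proliferation genes were all higher in Nrp-1+ iTreg, with a median log2 difference of 0.91 and a summed level of 1664 to 1713 FPKM in the Nrp-1+ libraries against 921.9 to 940.7 FPKM in the Nrp-1- libraries. The largest of these differences were those of Mcm5 (log2 difference 1.00, a DNA replication helicase subunit), Top2a (1.00, a DNA topoisomerase), Aurkb (0.96, a mitotic kinase) and Ccna2 (0.95, a cyclin). The part of the difference in proliferation genes in the values of the GIMAP genes was not tested.

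**Figure D4:**
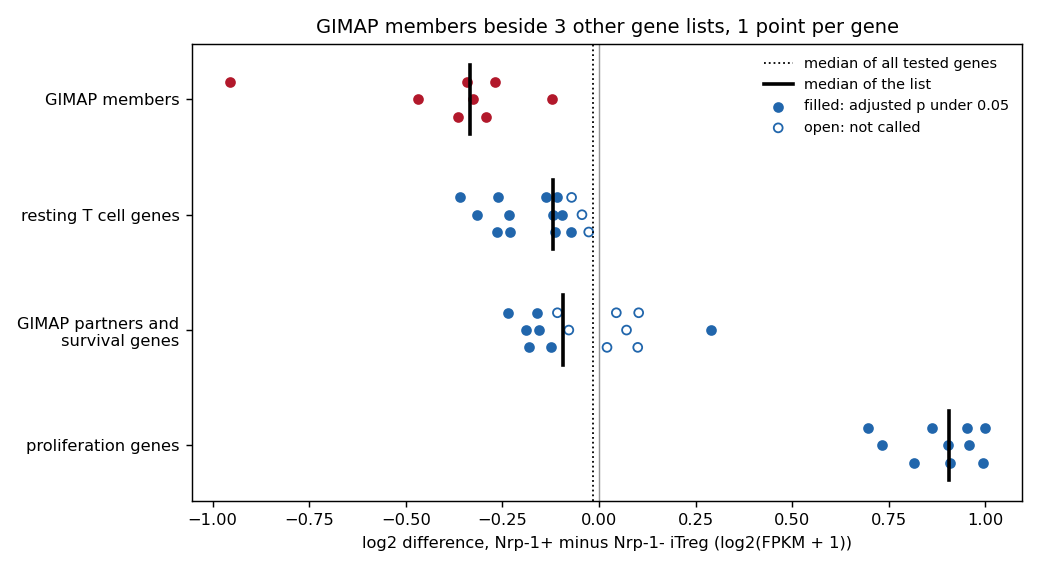
Each point is 1 gene and gives its log2 difference (Nrp-1+ minus Nrp-1- iTreg, log2(FPKM + 1) scale), with filled points for a limma adjusted p under 0.05, open points for genes that did not pass, a bar for the median of each list and a dotted line for the median of all tested genes. The GIMAP median is -0.33, the resting T cell median -0.12, the median of partners and survival genes -0.093 and the proliferation median 0.91.

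The tested genes outside the family whose profile over the 8 libraries was nearest to the mean profile of the members were Clk1, Slfn1, Wdr92, Irf1 and Pde2a. Nearness was measured as the root mean square difference between log2(FPKM + 1) values centred on each gene's mean, and it was 0.0150, 0.0204, 0.0215, 0.0281 and 0.0284 in that order. Clk1, a kinase of splicing factors, stood at 63.2 against 82.9 FPKM, and Slfn1, a schlafen gene, at 87.5 against 114.3 FPKM. Wdr92 stood at 22.5 against 29.5 FPKM, Irf1, an interferon regulatory transcription factor, at 86.5 against 111.8 FPKM, and Pde2a, a cyclic nucleotide phosphodiesterase, at 17.3 against 23.3 FPKM. These genes were chosen for their likeness over the same libraries, so their levels are a description without a test.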

How the data were processed

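RNA sequencing libraries of iTreg, 4 with and 4 without surface Nrp-1, were grouped by the sample labels. Reads had been handled in the CLC Genomics Workbench, and the FPKM values that the authors deposited, 1 for each gene symbol in each library, came from Cufflinks. The submitters' processing notes name the builds GRCm38 and mm10. The annotation is not given in the sources used here. FPKM is scaled by length and depth and is not a count, and a few very abundant transcripts can shift all other values of a library.

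Genes with a mean of at least 1 FPKM entered a limma 3.58.1 fit of log2(FPKM + 1) (eBayes, intensity trend, R 4.3.3), and p-values were adjusted by Benjamini-Hochberg over all tested genes. Single genes and shares were also tested by two-sided exact permutation. The fit was tested on simulated data. Other steps and the plots used Python 3.11.15, numpy 2.4.6, pandas 2.3.3 and matplotlib 3.10.9. Promoters, motifs and gene positions came from RefSeq and GENCODE M21 on GRCm38.p6. Relative depth came from the ratios of low values between libraries.

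The members and gene lists were chosen with earlier results of these data known. Named genes were all members, up to 4 called genes with the largest difference per list, the tested neighbours of the cluster and the 5 nearest profiles. Alternatives were 17: other pseudocounts, filters and scalings, no trend, array weights, a replicate block and each library left out. nTreg libraries were not analysed here, and 1 marker gene and the sum that holds it are not reported here.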

Additional observations from a re-analysis of the deposited data

Results flagged for a closer look

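In 34 groups of 4 libraries tested for a library that lay far from the others (Dixon's test at the 95% level), 5 had one, against 1.7 that chance alone would give. Replicate 1 of Nrp-1+ iTreg had Gimap5 at 26.0 FPKM, below the other 3 libraries of the group. Gimap7 held 4.74% of the family sum in replicate 4 of Nrp-1+ iTreg, also below the other 3. Among the Nrp-1- libraries, replicate 3 had Gimap8 at 56.9 FPKM and replicate 4 had Gimap9 at 126.8 FPKM, each above the other 3 libraries of its group. The relative depth of replicate 3 of Nrp-1+ iTreg was 1.22, above that of the other 3 libraries.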

How the results depend on the processing

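The number of GIMAP genes called lower in Nrp-1+ iTreg was 6 to 8 over the 17 alternative fits and 7 to 8 with 1 library left out, and 0 were called higher in any of them. The count was 8 in 6 of the fits and 6 with quantile normalization, where Gimap9 (log2 difference -0.13, limma adjusted p = 0.170) and Gimap4 (limma adjusted p = 0.114) did not pass. Gimap9 lost its call in 11 of the 17 fits. The other 6 members were called in all 17, and the log2 difference of Gimap7 stayed between -0.97 and -0.92. Partners and survival genes called lower numbered 5 to 7. The count of those called higher was 1 to 2 with 1 library left out, and 2 without replicate 1 of Nrp-1- iTreg. Resting T cell genes called lower numbered 8 to 12 and proliferation genes called higher 10 in each fit. Size factors and quantile normalization moved the median log2 difference of all tested genes from -0.016 to -0.0099 and -0.033. With the replicate number as a block 7 members were called lower, and Gimap9 had a limma adjusted p of 0.105, while Rarres2 passed (0.0152). Repin1 passed without the intensity trend (0.0439). Deviations of same-numbered libraries from their group means correlated at -0.54, -0.020, 0.010 and -0.50, and 0 of 8 libraries correlated best with their own number. These values cannot tell whether same-numbered libraries came from the same culture, since other differences between libraries could mask a shared origin. The depth behind single genes is unknown, and 4 libraries against 4 cannot give an exact p below 0.0286.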
